A study of Mus musculus with 24 samples.

Results

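The myogenic transcription factors considered here are 9 genes in 3 families: Myod1, Myf5, Myf6 and Myog, the basic helix-loop-helix myogenic regulatory factors (MRFs), Pax3 and Pax7, and the MEF2 genes Mef2a, Mef2c and Mef2d. Members were all probes whose platform gene symbol was 1 of these names, in the upper case of the rule (MEF2D, PAX7, PAX3 and MEF2C were found). They were 5 of 26423 probes and covered 4 of the 9 genes: Mef2d, Pax7 and Pax3 with 1 probe each and Mef2c with 2. Myod1, Myf5, Myf6, Myog and Mef2a were not analysed here. Total RNA of the tibialis anterior, a muscle of the front of the lower leg, was hybridised to arrays from 8 mice aged 6 weeks of the background C57BL6/J;129S1/SvImJ, with 3 arrays per animal and 24 in all. The 4 controls were Myf6 cre/+; Hira flox/+, and the 4 animals called Hira CKO (conditional knockout) were Myf6 cre/+; Hira flox/-. Both groups thus carried cre at Myf6, a gene of this family that is active in muscle fibres, and no animal without cre was measured. The groups also differed in cells without active cre, where Hira CKO has a null allele in place of the intact one. Nothing in the labels ties the animals to litters or days.

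MRFs bind the short DNA sequence called the E-box as dimers with E proteins, and drive muscle progenitors to form fibres. Pax3 and Pax7 act before them: Pax7 marks the satellite cells, the stem cells that lie on the fibres of adult muscle, and Pax3 is used by the progenitors that migrate into the embryonic limb. MEF2 proteins bind AT-rich sites together with MRFs and stay active in mature fibres, where calcium signals free them from class IIa histone deacetylases. HIRA deposits the histone variant H3.3 at active genes and regulatory regions.

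Of the 4 measured genes, Mef2d was lower in Hira CKO and passed the test, Pax7 was lower in every Hira CKO animal but did not pass, and Mef2c and Pax3 overlapped between the groups. The stretches just before the transcription starts of Mef2d and Pax7 are shown because these were the 2 genes whose animals did not overlap. They are the 250 bases before the start in the RefSeq promoter table (GRCm38.p6), read 5′ to 3′ on the gene's strand, with CG dinucleotides in capitals. Mef2d lies on the plus strand at chr3:88142122-88142371 and Pax7 on the minus strand at chr4:139832969-139833218.
Mef2d: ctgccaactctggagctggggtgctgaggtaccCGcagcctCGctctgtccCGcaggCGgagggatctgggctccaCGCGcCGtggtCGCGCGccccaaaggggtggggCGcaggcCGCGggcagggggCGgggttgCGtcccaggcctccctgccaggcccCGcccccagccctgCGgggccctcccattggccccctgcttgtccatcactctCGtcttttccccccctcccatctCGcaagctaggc
Pax7: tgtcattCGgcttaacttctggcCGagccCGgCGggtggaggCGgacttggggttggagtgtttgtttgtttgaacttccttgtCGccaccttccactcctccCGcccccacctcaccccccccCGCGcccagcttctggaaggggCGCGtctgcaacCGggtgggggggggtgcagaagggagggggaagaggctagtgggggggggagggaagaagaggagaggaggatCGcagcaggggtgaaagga

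The Mef2d stretch held 19 CG dinucleotides and the Pax7 stretch 13, where the median of all 32851 stretches of this length in the table was 6. As many or more were found in 19.7% of them for Mef2d and in 31.5% for Pax7. Neither stretch held the E-box CANNTG, which reads the same pattern on both strands and was present in 66.2% of all stretches. For Mef2c the table gave 3 starts, with 1, 6 and 4 CG dinucleotides and with 2, 0 and 1 E-boxes. Of the 4 measured genes 3 were matched in the table, and Pax3 was not. These are descriptions of the letters in the window. No binding or histone data were used here.

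Values below are the deposited intensities, which are linear and already normalized between arrays, averaged over the 3 arrays of an animal. Differences are Hira CKO minus control on the scale log2(intensity + 16), which understates changes of dim probes. A probe was called where the adjusted p of limma, a moderated linear model fitted to all 26423 probes, was under 0.05 after Benjamini-Hochberg adjustment over all of them. Intensities of different probes depend on the probe, so levels were not compared between genes. Array medians lay between 431.5 and 433.5, and no detection calls were used, so dim probes may be partly background. The Hira probe itself averaged 495 ± 48.9 among controls and 558 ± 38.9 among Hira CKO animals (SD, n = 4 each), a difference of 0.17 log2 (limma adjusted p 0.193). The labels do not place this probe inside or outside the floxed segment, so it does not check them.

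Mef2d encodes a widely expressed MEF2 protein that class IIa deacetylases such as HDAC4 can repress. Its intensity was 3743, 4062, 4092 and 4121 in the 4 controls and 2855, 3087, 2903 and 3050 in the 4 Hira CKO animals. Every Hira CKO animal lay below every control, with a gap between the groups wider than the range within either. The group means were 4005 ± 176 (SD, n = 4) and 2974 ± 112 (SD, n = 4). Mef2d fell by 0.43 on the log2 scale (SE 0.068, 95% interval −0.58 to −0.28), a ratio of 0.742 (0.668 to 0.825), with a limma adjusted p of 0.00211. The exact two-sided permutation p over the 70 assignments of the animals was 0.0286, the smallest this design can give. On single arrays, 11 of 12 Hira CKO arrays read below the lowest control array. The 12th read 3539, above the lowest control array at 3486. Repeated arrays of an animal differed by an SD of 0.109 log2, and animal means within a group by 0.0591.

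The call of Mef2d was made in all 21 other fits, which included 8 that left out 1 animal, with differences from −0.47 to −0.37 log2 and adjusted p from 6.2e-05 to 0.0163. Its size was not extreme on this array: 86.9% of all probes had a smaller absolute difference, and 4.13% had a smaller p. The 3 named genes whose animals followed Mef2d most closely, by the mean absolute difference of centred log2 values over the 8 animals, were Rhbdf1 (0.028 log2), an inactive rhomboid protein, Nid1 (0.029), the basement membrane protein nidogen, and Neurl1a (0.033). They fell by 0.43, 0.38 and 0.39 log2. Falls near that of Mef2d follow from this choice, since the centred values include the group difference.

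**Figure D1:**
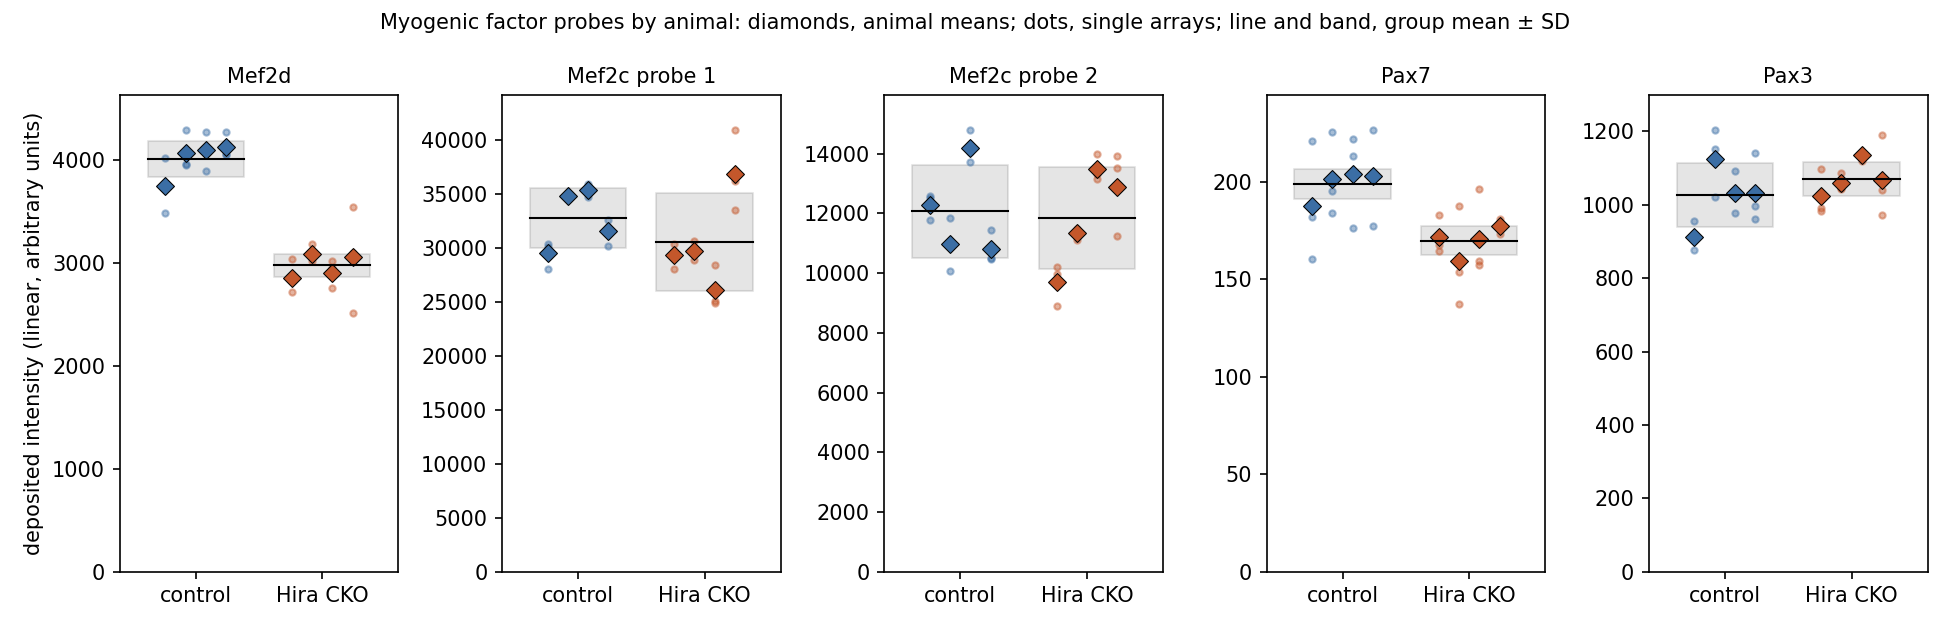
Deposited intensity (vertical axes, linear, arbitrary units, each starting at 0) of the 5 probes in control and Hira CKO animals, with diamonds for animal means, dots for single arrays, and a line and band for the group mean ± SD of 4 animals. The Mef2d diamonds of Hira CKO (2855 to 3087) lie clear of the controls (3743 to 4121), the Pax7 diamonds do not overlap either but their single arrays do, and Mef2c and Pax3 overlap.

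Mef2c is needed for muscle and heart development and for the upkeep of fibre structure. At its first probe the intensity was 29488, 34759, 35345 and 31510 in controls and 29342, 29680, 26109 and 36842 in Hira CKO. Both the lowest and the highest of the 8 values were in Hira CKO, and the groups overlapped. The difference was −0.11 log2 (SE 0.111, 95% interval −0.36 to 0.13, limma adjusted p 0.504). At its second probe the intensity was 12286, 10989, 14187 and 10802 in controls and 9690, 11341, 13478 and 12892 in Hira CKO. Here too the groups overlapped, with a difference of −0.03 log2 (SE 0.124, 95% interval −0.31 to 0.25, limma adjusted p 0.89). The intervals leave room for a ratio between 0.779 and 1.10 at the first probe and between 0.809 and 1.19 at the second.

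The probes of Mef2c ordered the animals differently. Hira CKO animal 3 was the lowest of all 8 at the first probe and the second highest at the second. Within each animal the first probe exceeded the second by 1.45 ± 0.189 log2 in controls and by 1.36 ± 0.288 log2 in Hira CKO (SD, n = 4). That gap differed between the groups by −0.08 log2, with an exact two-sided permutation p of 0.686 for this 1 pair, and its sign turned without Hira CKO animal 3 (0.054). Animal means of 3 arrays within a group spread by 0.170 log2 at the first probe and 0.198 at the second, against 0.0760 and 0.0916 between single arrays of an animal. The sign at the second probe was not stable: it turned in 4 of 21 other fits, among them the fits without control animal 3 (0.051) and without Hira CKO animal 1 (0.063).

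Pax7 read below the median of the array on all 24 arrays. Its intensity was 188, 202, 204 and 203 in controls and 172, 160, 171 and 177 in Hira CKO. Every Hira CKO animal lay below every control, although only 4 of 12 Hira CKO arrays read below the lowest control array. The group means were 199 ± 7.57 and 170 ± 7.39 (SD, n = 4). The difference was −0.21 log2 (SE 0.068, 95% interval −0.36 to −0.06), a ratio of 0.866, with a limma adjusted p of 0.0551, just above the threshold. The exact two-sided permutation p was 0.0286. Arrays of an animal differed by an SD of 0.157 log2, the largest array error of the 5 probes, and animal means within a group by 0.0584.

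The difference of Pax7 was below 0 in all 21 other fits, from −0.26 to −0.17 log2, and its adjusted p ran from 0.0234 to 0.204. It was under 0.05 in 3 of them: a pseudocount of 50 (0.0482), animal weights (0.0234) and the fit without control animal 1 (0.0483). In the other 7 fits that left out 1 animal it was between 0.0547 and 0.145. Pax7 in whole muscle comes from few cells, and in such bulk RNA fewer cells of a type and less RNA per cell cannot be told apart.

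Pax3 intensity was 912, 1125, 1032 and 1032 in controls and 1022, 1058, 1134 and 1067 in Hira CKO. All 4 Hira CKO values lay within or just above the range of controls. The means were 1025 ± 87.5 and 1070 ± 46.7 (SD, n = 4), and the difference was 0.06 log2 (SE 0.080, 95% interval −0.11 to 0.24, limma adjusted p 0.604). That interval corresponds to a ratio between 0.924 and 1.18.

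In all, 0 of the 5 probes rose and 1 fell. Over all probes 10.5% were called higher and 10% lower (20.6% in all), so that a single call among 5 probes does not set these genes apart. At an unadjusted limma p under 0.05 the counts were 0 higher and 2 lower. The animals did not overlap for 2 of the 5 probes, both of them lower, against 24.9% of all probes in either direction and 11.9% lower. The median difference was −0.11 log2 over the 5 probes and 0.01 over all probes.

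**Figure D2:**
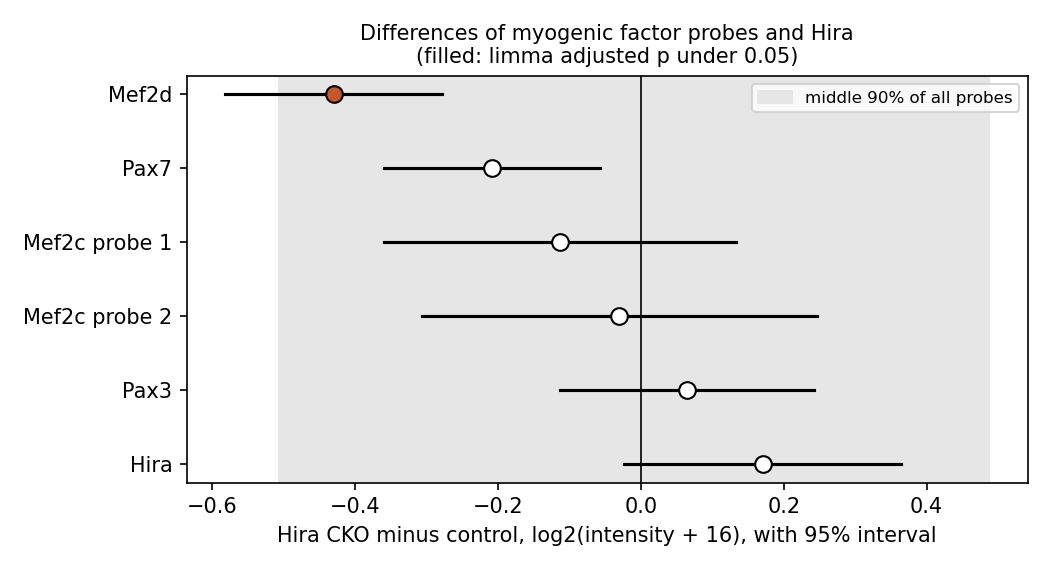
Difference between Hira CKO and control (horizontal axis, log2(intensity + 16)) for the 5 probes and Hira, with bars for the 95% interval of the limma fit, a filled point where the adjusted p was under 0.05 and a grey band for the middle 90% of all probes (−0.51 to 0.49). Mef2d at −0.43 is the only filled point and lies inside the band, and the intervals of both Mef2c probes, Pax3 and Hira include 0.

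Whether the members changed unequally was asked within each animal, from the log2 distance between each of the 10 pairs of probes, a comparison added after the values were seen. The distance between Mef2d and Pax3 shifted by 0.49 log2 between the groups and that between Mef2d and the first Mef2c probe by 0.32, both with non-overlapping animals. Mef2d fell further than Pax7 by 0.22 log2. For these 3 pairs, and for Pax7 against Pax3 (0.27), the exact two-sided permutation p was 0.0286, and 0.0714 after adjustment over the 10 pairs. For Mef2d against the second Mef2c probe the shift was 0.40 log2, with overlapping animals (exact p 0.0571, adjusted 0.114). With 4 against 4 animals 0.0286 is the smallest exact p, so the adjustment over 10 pairs left this comparison little room to pass 0.05, and these values do not show whether the members changed alike.

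**Figure D3:**
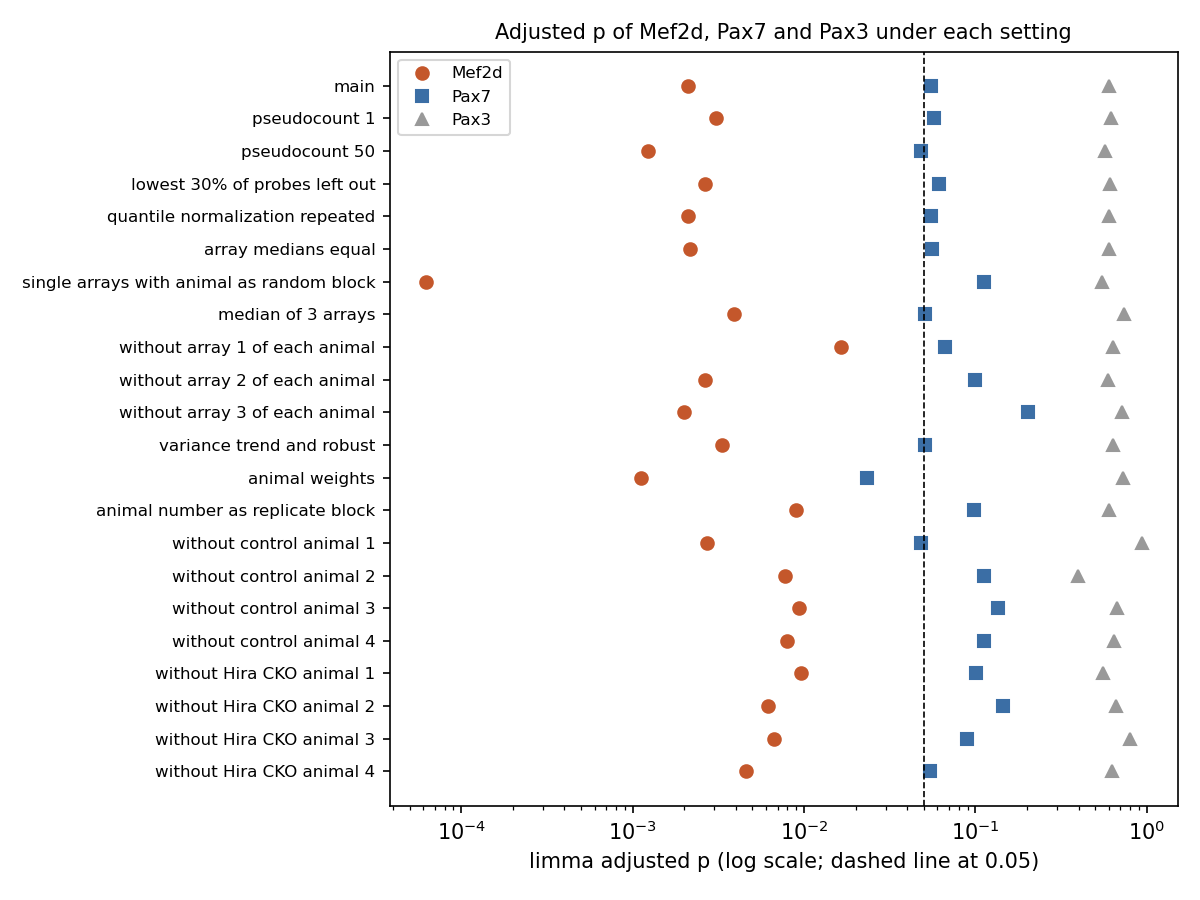
Adjusted p of Mef2d, Pax7 and Pax3 (horizontal axis, log scale, dashed line at 0.05) in the reported fit, named main, and in 21 other fits (vertical axis). Mef2d stays left of the line throughout, at 0.0163 or less, Pax7 lies near it, between 0.0234 and 0.204, and Pax3 lies far to its right, at 0.396 or more.

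The partners, regulators and targets of these factors and the satellite cell markers were described from 7 lists with 98 measured genes, each at its brightest probe. The 12 satellite cell markers among them are described last. Of these genes 6 rose and 13 fell, a share of 19.4%, beside 21.2% of all genes (11% higher and 10.3% lower). The count of called genes thus lay near that of all genes, and 13 of the 19 were also called in all 8 leave-one-out fits.

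Among E proteins, the dimer partners of the MRFs, Tcf4 fell by 0.67 log2, from 2331 ± 275 to 1459 ± 78.7 (SD, n = 4, limma adjusted p 0.00113). Tcf3 fell by 0.26 log2 (limma adjusted p 0.0474) and missed the threshold in 7 of the 8 leave-one-out fits, and Tcf12 did not pass at its brightest probe (0.24 log2, limma adjusted p 0.298). A second Tcf12 probe passed in the opposite direction (−0.44 log2, limma adjusted p 0.00728), so the probes of this gene disagreed. None of the Id proteins, which block E proteins, passed, with Id1 at −0.69 log2 (limma adjusted p 0.0669). Hes6, a bHLH protein that opposes the repressor Hes1, rose by 1.00 log2, from 3911 ± 435 to 7899 ± 1329 (SD, n = 4). In the list of 14 measured bHLH genes 1 rose and 2 fell, with a median of −0.07 log2. The count of falls was 1 without control animal 3 or 4 or Hira CKO animal 1, 2 or 3, and that of rises 2 without control animal 1. Among 10 measured homeobox regulators 1 rose and 1 fell, with a median of 0.03 log2. Lbx1, used by the progenitors that migrate into the limb, fell by 0.64 log2, from 295 ± 20.8 to 186 ± 27.3 (SD, n = 4), and Six2 rose by 0.34. With control animal 3 removed Six2 missed the threshold, which left 0 rises.

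Of 18 genes of MEF2 signalling, among them the class IIa deacetylases Hdac4, Hdac5, Hdac7 and Hdac9, 0 passed in limma at their brightest probe. For Camk2g, a calcium-dependent kinase, that probe differed by 0.15 log2 and a second probe passed at −0.38 log2 (limma adjusted p 0.0264). At an unadjusted p under 0.05, 1 was higher and 2 were lower, and the median was 0.01 log2. A single gene was called higher without Hira CKO animal 4, and a single gene lower without control animal 2. The nearest relative of the members, Mef2b, read 145, 253, 109 and 294 in controls and 191, 349, 314 and 377 in Hira CKO, with overlapping groups and a difference of 0.62 log2 (limma adjusted p 0.166). Of 16 coactivators and cofactors 2 rose and 2 fell, with a median of 0.18 log2. Vgll2, a muscle cofactor of TEAD proteins, fell by 0.68 log2, from 4332 ± 414 to 2698 ± 181 (SD, n = 4). Ep300, an acetyltransferase that works with MRFs and MEF2, rose by 0.66 log2, from 1208 ± 62.8 to 1925 ± 98.5 (SD, n = 4). Carm1, an arginine methyltransferase, fell by 0.38 log2 and by 0.40 at a second probe. Vgll3 rose by 0.24 log2 but missed the threshold in 6 of the 8 leave-one-out fits. The count of rises in this list was 1 without control animal 2, 3 or 4 or Hira CKO animal 1 or 4.

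Of 18 measured genes listed as MRF targets, 1 rose and 5 fell, a share of 33.3% beside 21.2% of all genes, with a median of −0.09 log2 beside 0.01 over all genes. The list has few genes and its share was not tested. Acta1, skeletal actin, fell by 0.55 log2, from 176618 ± 15479 to 120465 ± 7609 (SD, n = 4, limma adjusted p 0.00199). The other falls were in Actc1 (−2.21 log2), Chrng (−0.68) and, named after their values were seen, Rapsn (−0.39) and Ckm (−0.28), which both missed the threshold in 6 of the 8 leave-one-out fits. Casq2 rose by 1.03 log2. The count of falls was 3 without control animal 2 or 3 or Hira CKO animal 1 or 2. Of 10 genes listed as MEF2 targets 0 rose and 1 fell, with a median of −0.07 log2. The fall, in the Z-disc gene Ldb3 (−0.30 log2), missed the threshold in all 8 leave-one-out fits, and 3 other Ldb3 probes did not pass (−0.13, −0.15 and 0.10).

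**Figure D4:**
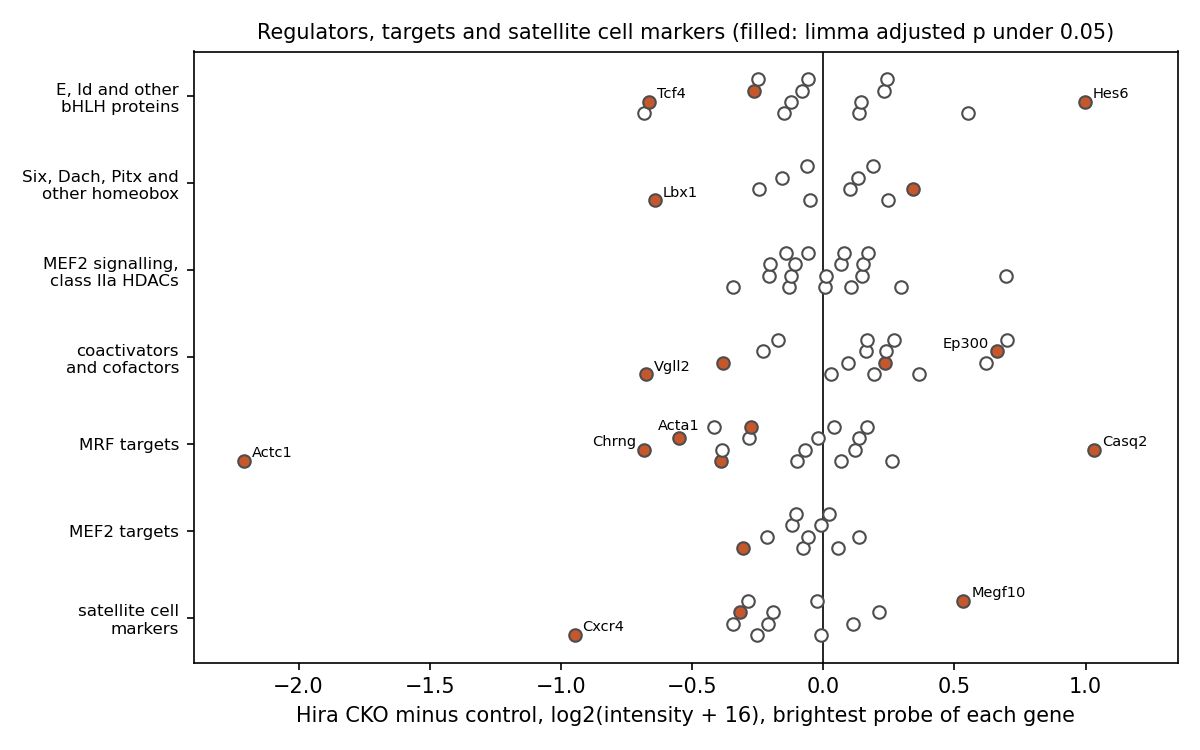
Difference between Hira CKO and control (horizontal axis, log2(intensity + 16)) for each measured gene of the 7 lists (vertical axis), at its brightest probe, with filled points where the limma adjusted p was under 0.05 and names where a called difference exceeded 0.5. Filled points lie on both sides of 0, from −2.21 in Actc1 to 1.03 in Casq2, and the row of MEF2 signalling genes holds none.

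Beside Pax7, the 12 other measured satellite cell markers had a median of −0.20 log2, and 9 of them were below 0. For all genes the median was 0.01 log2, and 8618 of 17742 were below 0. Of the 12 markers 1 rose and 2 fell, beside 21.2% of all genes called in either direction. The list is short, and neither its counts nor its median were tested against all genes. Cxcr4, a chemokine receptor, fell by 0.95 log2, from 150 ± 25.5 to 70.04 ± 10.8 (SD, n = 4), and Sdc3, a syndecan, by 0.32, while Megf10, a receptor of satellite cells, rose by 0.53. The Cxcr4 probe was dim, with the lowest mean of the 12 markers (110), so its values may be partly background. The summed intensity of the 12 ran from 39846 to 43426 in controls and from 36822 to 41647 in Hira CKO, with overlap. The largest parts of that sum were Cd34 (control mean 17213) and Itgb1 (11884). Calcr, the calcitonin receptor that marks quiescent satellite cells, differed by −0.21 log2 (limma adjusted p 0.0730) at a dim probe (control mean 132). Chrdl2 differed by 0.21 log2 in the other direction (limma adjusted p 0.0949), and Cdh15 by −0.025 (0.874).

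The labelled tissue was checked against 6 measured fibre markers, all with a mean of at least 148541. Of these 0 rose and 2 fell, Acta1 and Ckm, which were already counted among the MRF targets. The summed intensity of the 6 was 1287928 to 1493045 in controls and 1178283 to 1274931 in Hira CKO, without overlap. The summed intensity of 5 endothelial markers was 18695 to 21973 and 15899 to 18255, also without overlap, with 0 rises and 2 falls, in Kdr (−0.60 log2) and Pecam1 (−0.36, not passing in 6 of the 8 leave-one-out fits, nor at its 2 other probes, −0.21 and −0.22). That of 4 smooth muscle markers was 34075 to 46711 and 27058 to 34400, with overlap, and 1 of them fell, Smtn (−0.41 log2, lost without control animal 2 or 3). Of 4 lymphocyte markers 2 rose, Cd3e (0.48 log2) and Cd79b (0.29, not passing in 7 of those fits). Cd3g (−0.02 log2, limma adjusted p 0.898) and Cd79a (0.72 log2, limma adjusted p 0.156) did not pass. The sums of the 4 were 1977 to 3239 and 2969 to 4670, with overlap. Counts in these short lists were not tested against the 21.2% of all genes that were called. In limma 0 of 5 macrophage, 4 fibroblast and 3 Schwann cell markers passed. At an unadjusted p under 0.05, 1 macrophage marker was lower, 1 fibroblast marker was higher and 0 Schwann cell markers differed. The macrophage marker, Adgre1, had a mean of 222 and the fibroblast marker, Col1a1, of 51.7. Both lie below the array medians and may be partly background. None of these markers had a mean of 0, and the lowest mean was 46.02, of Cnn1. The part of fibre and endothelial RNA in the differences of Mef2d and Pax7 was not tested.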

How the data were processed

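Total RNA of tibialis anterior was measured on 24 Cy5 arrays of 8 mice. The deposited table holds a linear intensity per probe and array. The authors had normalized it, as judged from the values: all arrays share a maximum of 439069.7 and medians of 431.5 to 433.5. Scanner, background method and software: not given in the sources used here. Depth has no meaning for arrays, and the number of animals, 4 per group, limits the precision.

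Probes were named from the platform annotation (20377 of 26423, with 6046 unnamed here) and symbols were updated with the RefSeq table of GRCm38.p6. Negative values were set to 0, 16 was added, log2 was taken and the 3 arrays of an animal were averaged. The Hira CKO and control animals were compared by lmFit and eBayes of limma 3.58.1 under R 4.3.3, with Benjamini-Hochberg adjustment. The planned test assumed log2 values, and the linear unit required the pseudocount. The fit was tested on simulated data. It recovered 36 of 67 changes of 0.5 log2 (53.7%), 63 of 67 of 1 log2 (94%) and 65 of 66 of 2 log2 (98.5%), with 5 false calls. Changes below 0.5 log2 were not simulated. Far fewer probes were changed there than were called in the data, so these rates need not hold for the data.

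Named genes were all members, Hira, up to 4 genes per list with the largest called difference, and the 3 genes nearest to a called member. Other genes named (Id1, Tcf12, Mef2b, Calcr, Chrdl2, Cdh15, Cd34, Itgb1, Camk2g, the Hdac genes, Ckm, Rapsn and the cell markers) fall outside this rule and were chosen after their values were seen. The members and lists were chosen with earlier results of these data known. Other pseudocounts (1 and 50), a filter on the lowest 30% of probes, normalizations, array treatments, variance models, weights, a block, thresholds and each animal left out were tried. Where nothing says that samples came from separate litters or days, p-values measure the spread between these animals. Figures were drawn with matplotlib 3.10.9.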

Additional observations from a re-analysis of the deposited data

Results flagged for a closer look

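Control animal 1 stood apart from the other 3 controls for 3 of the probes. For Mef2d it read 3743 against 4062 to 4121, a gap of 0.848 of the range of the controls. For Pax7 it read 188 against 202 to 204, a gap of 0.884 of the range. For Hira it read 568 against 467 to 473, the highest control, a gap of 0.938 of the range. In each case the gap was above Dixon's 95% limit for 4 samples, and in each case control animal 1 was the control nearest to Hira CKO. Such gaps were looked for in 46 groups, 2 for each of 23 probes, and chance flags about 1 in 20. The 3 flagged are thus near the number that chance gives. Over all 26423 probes control animal 1 stood apart for 2.22%, and the other controls for 0.980% to 1.44%. Over the 5432 called probes control animal 1 was the control nearest to the Hira CKO mean for 37.9%, and the other controls for 13.4% to 26.0%. Without it the differences were −0.46 log2 for Mef2d, −0.23 for Pax7 (limma adjusted p 0.0483) and 0.24 for Hira (limma adjusted p 0.0626). Whether anything sets this animal apart was not tested.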

How the results depend on the processing

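The count of member probes called lower was 1, and 2 with a pseudocount of 50, with animal weights, at an adjusted p of 0.1 and without control animal 1, where Pax7 joined Mef2d. It was 1 to 2 over the fits that left out 1 animal. No member probe was called higher in any of 23 settings. For the 7 lists, the counts of 6 higher and 13 lower genes became 14 and 21 with single arrays and the animal as a random block, 12 higher with animal weights, 12 and 20 at an adjusted p of 0.1, and 7 lower at 0.01. Leaving out 1 animal gave 4 to 8 higher and 9 to 14 lower. The difference of Mef2c probe 2, the second of the gene, changed sign with the median of 3 arrays (0.0029 log2), without array 2 (0.0016), without control animal 3 (0.051) and without Hira CKO animal 1 (0.063). Over the fits that left out 1 animal its lowest value was −0.0962, without Hira CKO animal 3, and with animal weights it was −0.0983. The gap between the Mef2c probes ran from −0.16 to 0.054 log2 over such fits. The Hira difference kept its sign and did not pass in any of them. Animal numbers are shared by the groups, and the labels do not say whether they pair the animals. Deviations of equal numbers correlated at 0.296, 0.093, −0.064 and 0.067. So few animals cannot settle whether equal numbers share a litter or day. With the number as a replicate block the lists gave 8 higher and 15 lower, Mef2d had an adjusted p of 0.00895 and Pax7 of 0.0984. Array error of 0.157 log2 limits what can be said of Pax7.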
